A study of Mus musculus with 6 samples.

Results

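Dock1, Dock2, Dock5, Dock8, Dock10, Dock11, Elmo1 and Elmo2, the Dock exchange factors and Elmo adaptors described here, were measured by RNA-seq in Mll-AF9 myeloid leukemias with or without Rpl22. They are 8 named genes of the 16656 tested, chosen as a family while their genotype differences were already known. Those differences, and the calls and adjusted p given with some of them, are therefore a description and not an independent test. CD11b+Gr1+ cells were sorted from the spleens of tumor-bearing Mll-AF9 mice that were Rpl22+/+ (3 libraries) or Rpl22-/- (3 libraries). Mll-AF9 is a fusion oncogene carried by both groups as a knockin, and Rpl22, which encodes an RNA-binding protein of the large ribosomal subunit, was ablated in one of them. Both genotypes were on a C57BL/6 background, and the study's methods describe its mice as young adults, with no age given for these tumor-bearing animals in the labels. The study's figure text gives a single mouse identifier per genotype for its leukemia explants and no label ties a library to an animal, so errors measure the spread between libraries, which may be technical.

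Dock proteins are large guanine nucleotide exchange factors that load small GTPases with GTP through a catalytic domain of their own rather than the Dbl homology domain of most other exchange factors. Dock1, Dock2 and Dock5 form the Dock-A subfamily, bind Elmo adaptors and act on Rac, which drives actin branching at the leading edge and around engulfed particles. Dock8 (Dock-C) and Dock10 and Dock11 (Dock-D) act without Elmo and mainly on Cdc42, so the name Rac activators covers them only loosely. Dock2 and Dock8 are the forms best known from blood cells, in which they guide migration, and Dock1 is better known from adherent cells.

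The coding sequences of Dock10 and Dock11 are printed first because these 2 members turned out to be the least even between libraries, and the base composition of a transcript went along with that. For the transcript that carried most reads of a gene, the 90-base stretch of coding sequence with the lowest G and C content is shown, 5′ to 3′, with each G or C in capitals and positions counted from the A of the start codon. Dock11-201 (bases 1865 to 1954, 26.7% GC) and Dock10-201 (bases 1967 to 2056, 31.1% GC) are set against Dock8-201 (bases 821 to 910, 35.6% GC) and Elmo2-203 (bases 865 to 954, 41.1% GC), and against Dock1-201 (bases 2041 to 2130, 32.2% GC), whose lowest stretch was close to that of Dock10. None of these 3 members had such a deviation.
Dock11: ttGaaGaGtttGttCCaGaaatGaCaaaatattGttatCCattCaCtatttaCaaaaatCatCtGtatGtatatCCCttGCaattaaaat
Dock10: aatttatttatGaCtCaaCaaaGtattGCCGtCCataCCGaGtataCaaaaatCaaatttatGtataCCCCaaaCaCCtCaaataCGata
Dock8: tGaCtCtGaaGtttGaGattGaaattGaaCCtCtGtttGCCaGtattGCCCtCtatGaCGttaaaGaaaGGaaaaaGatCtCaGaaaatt
Elmo2: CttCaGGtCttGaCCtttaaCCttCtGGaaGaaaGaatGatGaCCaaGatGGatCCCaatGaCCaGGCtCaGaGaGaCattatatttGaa
Dock1: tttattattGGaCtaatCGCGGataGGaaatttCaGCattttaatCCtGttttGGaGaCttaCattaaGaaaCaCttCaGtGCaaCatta
In an alignment of the whole coding sequences, 84 bases of the Dock10 stretch lay opposite the Dock11 stretch, so the search reached the same place in both genes, and 55 of those 84 bases (65.5%) were identical. Stretches of this length under 35% GC made up 10.9% of all positions in the Dock11 coding sequence, 1.59% in Dock10, 0.672% in Dock1, 0.381% in Dock5, whose lowest stretch was also at 32.2% GC, and 0% in the other 4 members. With transcripts weighted by their mean length-scaled level (TPM), the mean transcript GC content was 41.1% for Dock11 and 44.9% for Dock10. It was 46.7% to 54.4% for the other 6 members.

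The promoters of Dock1 and Dock2 are shown because they belong to the Dock-A members with the lowest and the highest level in these cells. Each runs from 250 bases before to 50 bases after a RefSeq start on the GRCm38.p6 build, 5′ to 3′ on the strand of the gene, with CG dinucleotides in capitals. The Dock1 promoter is at chr7:134670437-134670736 (plus strand) and the Dock2 promoter at chr11:34783856-34784155 (minus strand).
Dock1: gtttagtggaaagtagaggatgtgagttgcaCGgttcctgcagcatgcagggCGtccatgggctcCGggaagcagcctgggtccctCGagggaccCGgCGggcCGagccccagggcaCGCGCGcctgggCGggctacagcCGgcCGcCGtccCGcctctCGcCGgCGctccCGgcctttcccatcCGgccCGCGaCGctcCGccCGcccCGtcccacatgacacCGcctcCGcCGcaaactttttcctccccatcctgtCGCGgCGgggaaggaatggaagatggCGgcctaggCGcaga
Dock2: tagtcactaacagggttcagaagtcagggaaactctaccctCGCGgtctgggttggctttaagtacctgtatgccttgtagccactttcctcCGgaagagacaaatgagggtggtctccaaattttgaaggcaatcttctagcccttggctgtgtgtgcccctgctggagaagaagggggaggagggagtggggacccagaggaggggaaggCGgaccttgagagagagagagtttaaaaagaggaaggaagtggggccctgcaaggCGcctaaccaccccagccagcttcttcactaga
The Dock1 promoter held 34 CG dinucleotides at 70.7% GC, and the Dock2 promoter held 5 at 54.3% GC, with medians of 7 and 52.7% over 32851 mouse promoters. The letters GGAAGT, the core of sites for ETS factors such as PU.1, were searched on both strands and began 3 bases before the Dock2 start and 10 bases before the Dock8 start, and occurred in 6 of 11 promoters of 7 members, against 23.8% of all promoters. No match to this core, nor to GAGGAAGT (the longer PU.1 form, which contains the core, in 3.2% of all promoters), TGTGGT (RUNX, 16.8%), CACGTG (the E-box of Myc, 7.15%), TTGCGCAA (C/EBP, 0.183%) or TATAAA (the TATA box, 13.6%) was found in the Dock1 window. Dock5 had no entry.

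The 6 libraries held 35828500 to 102866127 estimated reads. Rpl22 itself stood at 148, 235 and 152 CPM in Rpl22+/+ and 58.3, 89.9 and 73.5 CPM in Rpl22-/- (log2 fold change −1.27 ± 0.25, SE), CPM being the share of a library's estimated reads after TMM scaling, set to the same total in each. The groups did not overlap, in the direction of the labels, although reads remained in Rpl22-/-. The genotypes also differed in myeloid maturity: all 7 genes of an immature granulocyte list (Elane, Mpo and others) rose and 6 of 8 of a mature list (Mmp8, Retnlg and others) fell, with summed levels of 2900 to 3780 against 26900 to 32000 TPM and 134000 to 141000 against 89600 to 109000 TPM. TPM is a level scaled for transcript length. Of 6 markers of the sorted myeloid cells 2 fell and none was called higher by edgeR or DESeq2 (1 at an unadjusted p under 0.05), while their summed level was 3090 to 3460 TPM in Rpl22+/+ and 3740 to 4300 TPM in Rpl22-/-. The 2 were genes of the sort itself, as Itgam (CD11b) fell by 1.02 and Ly6g, part of the Gr1 epitope, fell by 3.49 on the log2 scale, the latter from 149 to 178 CPM down to 11.1 to 15.7 CPM. Rpl22+/+ replicate 2 stood apart from replicates 1 and 3 for transcripts of low GC content, and values without it are given for the members and where it changes a call.

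Dock1 was the member with the largest difference between the genotypes. Dock1 (ENSMUSG00000058325, chr7:134272383-134775368, plus strand, GRCm39 here and for the genes that follow) encodes DOCK180, the first Dock protein described, which acts with Elmo and Crk adaptors in engulfment and migration. Its level was 2.46, 2.32 and 2.23 CPM in the Rpl22+/+ libraries, on 173, 172 and 167 reads, and 33.9, 30.3 and 33.5 CPM in the Rpl22-/- libraries, on 1269, 3033 and 3548 reads. The values within each genotype lay close together and every Rpl22-/- library was far above every Rpl22+/+ library. The log2 fold change was 3.80 ± 0.15 (SE), or 13.9-fold higher in Rpl22-/-, and 3.75 ± 0.13 without Rpl22+/+ replicate 2. Length-scaled levels gave the same picture, at 0.485, 0.448 and 0.447 TPM against 7.63, 6.04 and 7.40 TPM.

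**Figure D1:**
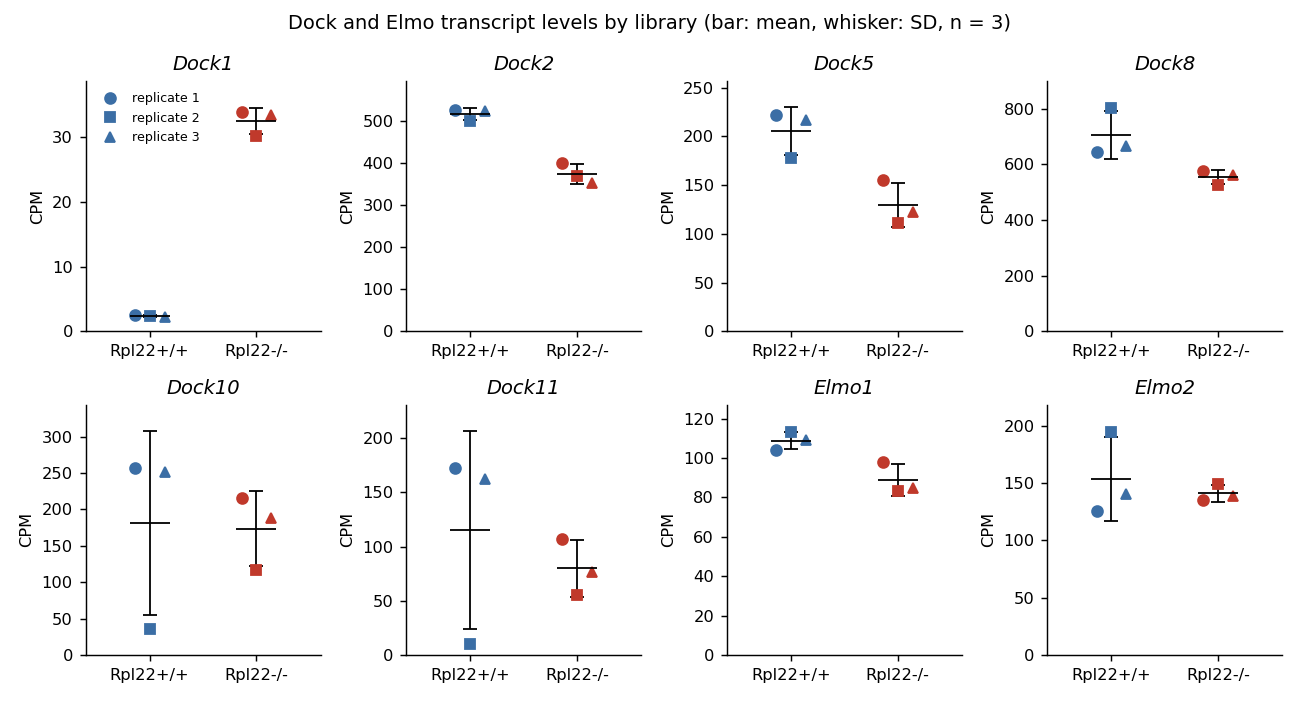
Each panel plots the CPM (TMM-scaled) of a member in the 3 Rpl22+/+ and 3 Rpl22-/- libraries, with the mean and SD as bar and whisker and a marker shape for each replicate number. Dock1 lies near 2 CPM in Rpl22+/+ and above 30 CPM in Rpl22-/-, and replicate 2 (square) is the lowest library of both genotypes for Dock10 and Dock11.

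Dock1 was 1 of 8 members past the call used here, an absolute log2 fold change over 1 with an adjusted p under 0.05 in the fit across all genes, in the direction of higher in Rpl22-/-. The same call was made for 8.93% of all tested genes. No member was called lower by edgeR or DESeq2 (8.54% of all genes in edgeR). Dock2 and Dock5 lay lower at an adjusted p under 0.05 in edgeR (13.8% of all genes) and in that fit missed the call on fold size. The adjusted p depended on the libraries used. It was 0.146 for Dock2 and 0.12 for Dock5 without Rpl22-/- replicate 3, and 0.0093 and 0.00522 without Rpl22+/+ replicate 2. Since the members were chosen on this contrast nothing is read from these counts. Non-overlapping CPM ranges were found for Dock1 on the higher side (23.9% of all genes) and for Dock2, Dock5, Dock8 and Elmo1 on the lower side (22.2% of all genes). In sorted bulk RNA, fewer cells of a type and less RNA per cell cannot be told apart. The part of the shift toward immature granulocyte genes in the level of Dock1 was not tested.

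Most Dock1 reads were assigned to the full-length coding transcript in both genotypes. Dock1-201, which encodes 1865 residues, took 100%, 99.0% and 95.5% of the gene's reads in Rpl22+/+ and 97.9%, 97.4% and 94.7% in Rpl22-/-. The higher level was thus carried by the same annotated transcript. Its coding sequence shared 67.4% of aligned bases with Dock2 and 68.8% with Dock5, and the longest exact stretch in common between the main transcripts was 28 and 30 bases. The 4 genes whose profile over the 6 libraries was closest to that of Dock1 were Large2, Nrg4, Igflr1 and Gdpd2, by Euclidean distance between log2 CPM profiles centred on their own mean (0.32, 0.41, 0.43 and 0.43) among 11595 genes. Nrg4, which encodes a neuregulin ligand of ErbB4, had 15.9, 15.0 and 14.6 CPM against 289, 245 and 237 CPM.

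Dock2, the main Rac exchange factor of leukocytes, was lower in Rpl22-/-. Dock2 (ENSMUSG00000020143, chr11:34176815-34674719, minus strand) had 524, 499 and 524 CPM in Rpl22+/+ and 400, 370 and 353 CPM in Rpl22-/-. The groups did not overlap, and the spread within each was small. This gave a log2 fold change of −0.46 ± 0.13 (SE), a ratio of 0.725, and −0.53 ± 0.11 without Rpl22+/+ replicate 2. On the length-scaled values the ranges met, at 114, 81.4 and 110 TPM against 92.1, 73.1 and 76.4 TPM, with replicate 2 the lowest of each genotype. Dock2-201 carried more than 99% of the reads in all 6 libraries.

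Dock5 was the member with the largest drop among those measured evenly. Dock5 (ENSMUSG00000044447, chr14:67989584-68170891, minus strand) encodes a Dock-A factor known from osteoclasts and neutrophils. It stood at 221, 177 and 217 CPM in Rpl22+/+ and 155, 111 and 123 CPM in Rpl22-/-. Every Rpl22-/- library was below every Rpl22+/+ library, and replicate 2 was the lowest of its genotype in both. On the log2 scale the difference was −0.66 ± 0.18 (SE), a ratio of 0.632, and −0.81 ± 0.14 without Rpl22+/+ replicate 2. In TPM the ranges met (45.4, 28.1 and 41.6 against 32.5, 21.0 and 24.1). A retained-intron transcript, Dock5-203, took 9.72% to 11.5% of the Dock5 reads of each library, and its mean share was 10.6% ± 0.759 (SD, n = 3) in Rpl22+/+ and 10.6% ± 0.731 (SD, n = 3) in Rpl22-/-. The genes nearest to Dock5 in profile were Rbms1, Map3k5, Klhl12 and Hrh2, at distances of 0.11, 0.12, 0.13 and 0.14.

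Within the Dock-A subfamily the makeup differed although Dock1 remained a minor form. Dock1 made up 0.303%, 0.408% and 0.294% of the summed Dock1, Dock2 and Dock5 TPM in Rpl22+/+ and 5.77%, 6.03% and 6.86% in Rpl22-/-. The summed level was 141 ± 26.9 TPM (SD, n = 3) in Rpl22+/+ and 113 ± 16.7 TPM (SD, n = 3) in Rpl22-/-. These sums overlapped between genotypes (110 to 160 TPM against 100 to 132 TPM).

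Dock8, a Cdc42 exchange factor needed for leukocyte migration through tissue, also had a lower CPM in every Rpl22-/- library. Its adjusted p was 0.135 in edgeR and 0.0368 in DESeq2. Dock8 (ENSMUSG00000052085, chr19:24976898-25179796, plus strand) had 643, 803 and 667 CPM in Rpl22+/+ and 577, 525 and 561 CPM in Rpl22-/-. The groups did not overlap, and Rpl22+/+ replicate 2 was the highest library rather than the lowest. The difference came to −0.35 ± 0.15 (SE) on the log2 scale, a ratio of 0.787, and −0.29 ± 0.10 without that library. Dock8 was, beside Dock1, the only member whose groups also stayed apart in TPM, at 117, 111 and 115 TPM against 107, 85.0 and 100 TPM.

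The Dock-D members were uneven within genotypes. Dock10 (ENSMUSG00000038608, chr1:80478790-80736244, minus strand) encodes an exchange factor known from lymphocytes, where interleukin-4 induces it. It had 258, 36.0 and 251 CPM in Rpl22+/+ and 216, 116 and 188 CPM in Rpl22-/-. Rpl22+/+ replicate 2 lay below every other library, replicate 2 was also the lowest Rpl22-/- library, and the groups overlapped. With all libraries the log2 fold change was −0.06 ± 0.66 (SE), and without Rpl22+/+ replicate 2 it was −0.61 ± 0.23 (SE). It was positive in 9 of 18 alternatives, up to 0.48 on log2(TPM + 0.1).

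Dock11 followed the same pattern more strongly. Dock11 (ENSMUSG00000031093, chrX:35152485-35340215, plus strand) encodes zizimin2, a Cdc42 exchange factor of blood cells. It had 173, 9.95 and 163 CPM in Rpl22+/+ and 107, 55.4 and 77.0 CPM in Rpl22-/-. The Rpl22+/+ group therefore held both the highest libraries and the lowest one. The log2 fold change was −0.53 ± 0.87 (SE) with all libraries and −1.13 ± 0.23 (SE), a ratio of 0.457, without Rpl22+/+ replicate 2. The sign turned in 4 of 18 alternatives, to 0.12 with the replicate block, 0.0026 with the block and a GC curve, 0.31 on log2(TPM + 1) and 0.46 on log2(TPM + 0.1). Without Rpl22+/+ replicate 2 Dock11 was the only member called lower (10.1% of all genes) and Dock1 the only one called higher (9.97% of all genes).

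**Figure D2:**
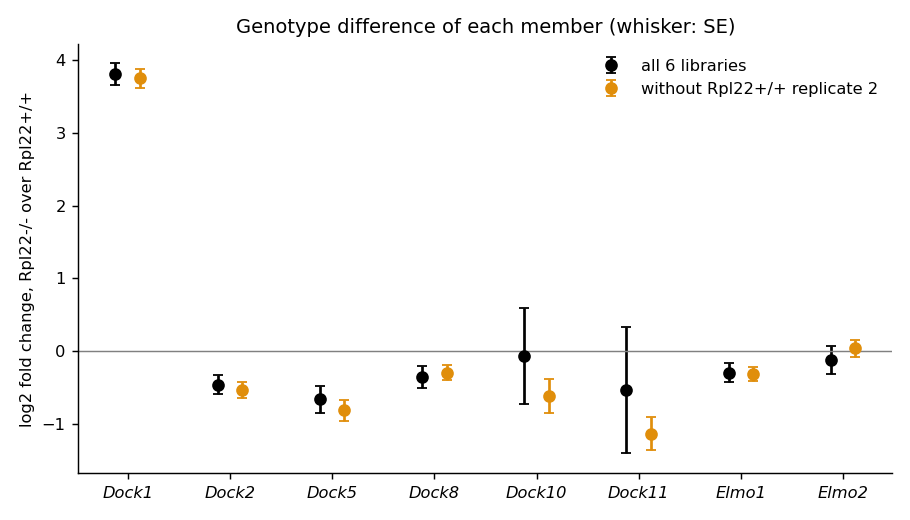
The log2 fold change of Rpl22-/- over Rpl22+/+ is plotted with its SE for each member, from all 6 libraries (black) and without Rpl22+/+ replicate 2 (orange). Dock1 is at 3.80 and 3.75, while Dock10 goes from −0.06 to −0.61 and Dock11 from −0.53 to −1.13, with a smaller SE when that library is left out.

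In Rpl22+/+ replicate 2, Dock11 was 16.8-fold and Dock10 7.06-fold below the mean of replicates 1 and 3 on the log2 scale. Dock11 lay at percentile 1.26 and Dock10 at percentile 3.56 of the same deviation over 13202 genes. The other 6 members deviated by between −0.31 (Dock5) and 0.56 (Elmo2) in log2 CPM. Low GC content went with the deviation across genes: its median was −1.21 for 817 genes of 40% to 42.5% GC, the range that holds Dock11, −0.47 for 1371 genes of 42.5% to 45% GC, the range that holds Dock10, and 0.52 for 2714 genes of 55% to 60% GC. Among transcripts of at least 5000 bases in those 2 low ranges the medians were −2.16 (119 genes) and −1.13 (184 genes), and 23 and 36 of these long genes lay lower than Dock11 and Dock10. After a curve on GC content was taken out of each library, Dock11 still deviated by −2.82 and Dock10 by −2.45. What lowered these transcripts in that library was not tested.

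**Figure D3:**
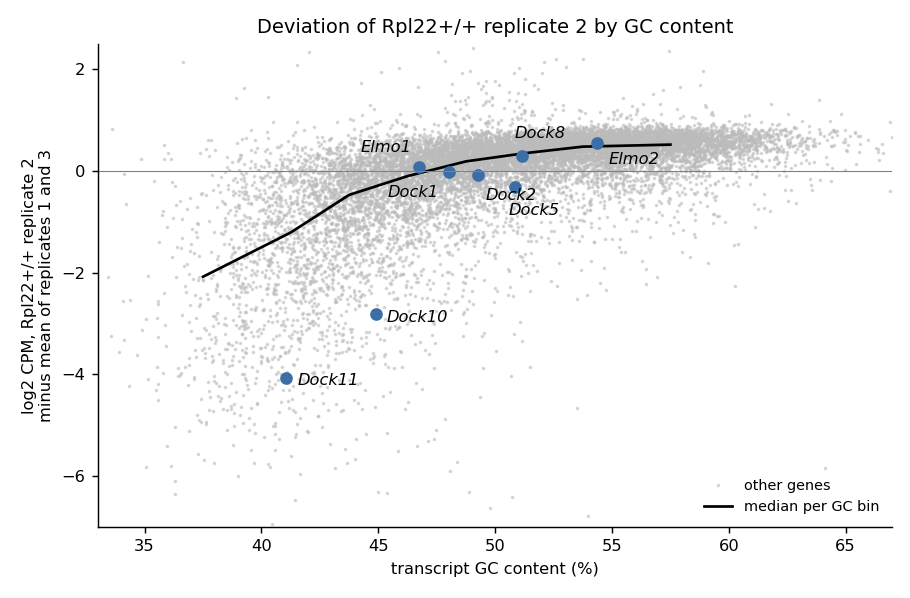
The deviation of Rpl22+/+ replicate 2 from the mean of replicates 1 and 3 (log2 CPM) is plotted against transcript GC content (%), with grey points for other genes, blue points for the 8 members and a black line through the median of each GC range. Dock11 and Dock10 lie at −4.07 and −2.82, below the line, and the other members lie between −0.31 and 0.56.

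The transcript shares of Dock10 also differed in that library. Dock10-201 took 79.4% of the Dock10 reads in Rpl22+/+ replicate 2 against 54.9% and 57.8% in replicates 1 and 3. Dock10-203, 1 of the 4 retained-intron transcripts of Dock10, took 0.705%, on only 18.8 estimated reads, against 5.84% and 4.91%. Another of the 4, Dock10-211, went the other way, at 2.06% against 1.23% and 1.35%. In Rpl22-/- Dock10-201 and Dock10-203 took 68.1% and 2.34% in replicate 2 and 52.7% to 57.2% and 4.88% to 8.66% in the others. Of the 2 retained-intron transcripts of Elmo1, Elmo1-203 showed the same order as Dock10-203. It took 0.171% in Rpl22+/+ replicate 2, on only 14.3 estimated reads, against 4.19% and 4.49%. In Rpl22-/- replicate 2 it took 1.07% against 5.64% and 3.15%. Elmo1-204 took 1.45% in Rpl22+/+ replicate 2 against 1.31% and 1.30%. Dock11-202, a short coding form, took at most 0.789% of the Dock11 reads in Rpl22+/+ and 2.21% to 5.12% in Rpl22-/-, ranges that did not overlap. This was not particular to Dock11-202. Shares also stayed apart for Elmo2-205 (7.51% to 7.80% against 8.69% to 9.23%) and Elmo1-207 (3.91% to 4.12% against 4.89% to 5.46%), among others.

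The Elmo adaptors, which release Dock-A proteins from autoinhibition and carry them to the membrane, differed little. Elmo1 (ENSMUSG00000041112, chr13:20274766-20792523, plus strand), a form abundant in phagocytes, had 104, 113 and 109 CPM in Rpl22+/+ and 98.2, 83.5 and 84.9 CPM in Rpl22-/-. The CPM ranges did not overlap, by a narrow margin. The log2 fold change was −0.29 ± 0.13 (SE), a ratio of 0.816, and the TPM ranges overlapped (46.0, 38.9 and 46.6 against 46.0, 37.4 and 40.9). The gene sum of Elmo1 reached only 0.649 of the authors' base mean, against 0.972 to 0.998 for the other 7 members, so part of the reads the authors assigned to Elmo1 is missing from its values here.

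Elmo2 (ENSMUSG00000017670, chr2:165129951-165168399, minus strand), the broadly expressed form, had 125, 195 and 140 CPM in Rpl22+/+ and 135, 149 and 139 CPM in Rpl22-/-. The groups overlapped fully, and only Rpl22+/+ replicate 2 stood above the rest. Its log2 fold change was −0.12 ± 0.19 (SE), and 0.04 ± 0.12 without that library. The summed TPM of Elmo1 and Elmo2 was 100 ± 2.35 (SD, n = 3) in Rpl22+/+ and 98.8 ± 5.56 (SD, n = 3) in Rpl22-/-. The minor coding transcript Elmo2-211 took 0.744% to 1.45% of the Elmo2 reads in Rpl22+/+ and 1.66% to 5.05% in Rpl22-/-.

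With all libraries, the order of the members by mean length-scaled level was the same in both genotypes. In Rpl22+/+ it ran from Dock8 (114 ± 3.36 TPM, SD, n = 3) and Dock2 (102 ± 17.8 TPM) through Elmo2 (56.6 ± 4.77), Elmo1 (43.8 ± 4.29), Dock10 (39.3 ± 29.3), Dock5 (38.3 ± 9.10) and Dock11 (24.0 ± 19.4) to Dock1 (0.46 ± 0.0214). In Rpl22-/- the means were 97.4 ± 11.3, 80.5 ± 10.1, 57.3 ± 1.43, 41.5 ± 4.33, 38.6 ± 15.6, 25.9 ± 5.97, 18.4 ± 7.37 and 7.02 ± 0.86 TPM (SD, n = 3) in that order. Neighbours whose library ranges overlapped, in both genotypes, were Dock8 and Dock2, Elmo1 and Dock10, Dock10 and Dock5, and Dock5 and Dock11. Without Rpl22+/+ replicate 2 the Rpl22+/+ order differed, as Dock10 (56.2 TPM) then stood above Elmo2 (54.1 TPM) and Elmo1 (46.3 TPM). The place of Elmo1 rests on a gene sum that lacks part of its reads. Dock1 stayed the least abundant member where it was highest.

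Over the 8 members, 7 had a negative log2 fold change, and 6 did without Rpl22+/+ replicate 2, against 45.8% of all tested genes with all libraries. The median was −0.32 for the members and 0.07 for all genes. For the genes of the pathway that are not members, 122 genes in 11 lists were looked up and 109 were tested. Of these, 10 (9.17%) were called higher and 16 (14.7%) lower, beside 8.93% and 8.54% of all genes, and their median was −0.42. Without Rpl22+/+ replicate 2 the counts were 11 and 20, with Gas6, a TAM receptor ligand, tested only there. Leaving out another library lowered the count called higher to 6 without Rpl22+/+ replicate 1, 5 without Rpl22+/+ replicate 3, 5 without Rpl22-/- replicate 2 and 6 without Rpl22-/- replicate 3.

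Among the other Dock genes, Dock9 (zizimin1), a Cdc42 exchange factor and the third Dock-D gene, had 13.1, 7.27 and 10.8 CPM in Rpl22+/+ and 67.1, 48.2 and 43.8 CPM in Rpl22-/-, a difference of 2.35 ± 0.28 on the log2 scale (adjusted p = 0.00147). Dock9 rose and was called higher under all 18 alternative settings. Dock6 had a log2 fold change of −0.21 ± 0.16 (adjusted p = 0.374), and Dock4 one of −0.86 ± 0.31 (adjusted p = 0.0818), which was called lower without Rpl22+/+ replicate 2 (−1.12). Of the Elmo relatives, 1 of 3 tested was called: Elmo3 rose from 1.82 to 2.48 CPM to 4.13 to 5.61 CPM (1.16 ± 0.23, adjusted p = 0.0111), and lost the call without Rpl22+/+ replicate 3. Elmod2 stood at 0.08 ± 0.34 (adjusted p = 0.896).

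The adaptors and receptors that bring Dock and Elmo to the membrane were mixed. Of 7 adaptors tested, Arhgef16, an exchange factor that activates RhoG, was called higher (1.06 ± 0.31, adjusted p = 0.0444) at 0.655 to 1.27 against 1.74 to 2.28 CPM, and it lost the call in 5 of the 6 fits that left out a library. Rhog, the GTPase that recruits Elmo, stood at −0.64 ± 0.22 (adjusted p = 0.0691). Of 13 engulfment genes tested, 2 were called higher and 4 lower, and without Rpl22+/+ replicate 2 the counts were 4 and 6. Pros1, a ligand that bridges dying cells to TAM receptors, fell from 16.9 to 19.1 CPM to 1.84 to 3.18 CPM (−2.74 ± 0.24, adjusted p = 0.00049), and Itgb3, an integrin beta chain, fell from 47.1 to 60.2 CPM to 10.3 to 11.2 CPM (−2.26 ± 0.15, adjusted p = 0.000188). Both were called under all 18 alternatives. The scavenger receptors went opposite ways, with Stab1 lower (−1.53 ± 0.29, adjusted p = 0.00946) and Stab2 higher (1.52 ± 0.32, adjusted p = 0.0148). The call of Stab1 ended on length-scaled values, where its change was 0.0685 on log2(TPM + 1), and that of Stab2 ended without Rpl22-/- replicate 2. Itgav, the partner chain of Itgb3, stood at −0.87 ± 0.14 (adjusted p = 0.00561), short of the size needed for a call, and was called lower without Rpl22+/+ replicate 2 (−1.02, adjusted p = 0.000483).

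**Figure D4:**
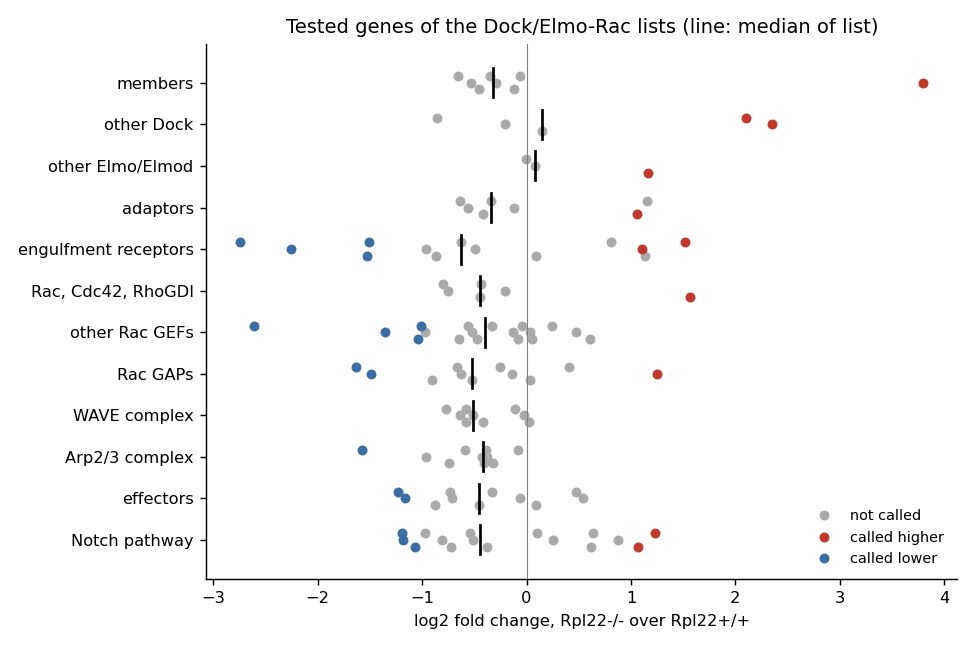
Each point is the log2 fold change of Rpl22-/- over Rpl22+/+ of a tested gene, for the 8 members and the 11 lists of other pathway genes, coloured red where called higher, blue where called lower and grey otherwise, with a black line at the median of a list. The members have a median of −0.32 with Dock1 at 3.80, and the WAVE complex list has no called gene.

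The single call among the Rac, Cdc42 and RhoGDI genes was higher, and the 4 calls among the other Rac exchange factors were lower (16.7% and 22.2% of those tested). Of 6 GTPase and RhoGDI genes, Rac3 was called higher (1.57 ± 0.29, adjusted p = 0.00851) at 0.365 to 0.570 against 1.28 to 1.52 CPM, and Arhgdib, the RhoGDI of blood cells and the highest of the list in CPM, stood at −0.80 ± 0.20 (adjusted p = 0.0267). Of 18 exchange factors of the Dbl and related families, 4 were called lower and none higher (2 at an unadjusted p under 0.05, 0 in DESeq2), namely Farp1 (−2.61 ± 0.26, adjusted p = 0.000772), Prex1 (−1.36 ± 0.20, adjusted p = 0.00366), Trio (−1.04 ± 0.15, adjusted p = 0.00339) and Tiam2 (−1.01 ± 0.13, adjusted p = 0.0023). Prex1, the Rac activator downstream of Gβγ and PI3K in neutrophils, had 365 ± 92.4 CPM (SD, n = 3) against 143 ± 6.58 CPM (SD, n = 3), whereas Farp1 was scarce at 4.34 to 6.05 CPM against 0.669 to 0.991 CPM. Without Rpl22+/+ replicate 2, 5 exchange factors were called lower. Trio lost its call in 6 of 18 alternatives, among them the fit without Rpl22-/- replicate 1. Tiam2 lost it in 7, among them the fits without Rpl22+/+ replicate 3 and without Rpl22-/- replicate 1. Vav1, the uncalled gene of the list with the highest CPM averaged over the 6 libraries, stood at −0.08 ± 0.16 (adjusted p = 0.776).

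Of 11 Rac GTPase activating proteins, which switch Rac off, Srgap3 was called higher (1.25 ± 0.14, adjusted p = 0.0012) and Arhgap25 (−1.63 ± 0.15, adjusted p = 0.000637) and Arhgap24 (−1.49 ± 0.23, adjusted p = 0.00468) lower. Arhgap25, a regulator of phagocytosis in myeloid cells, had 107, 139 and 116 CPM against 36.1, 42.8 and 38.1 CPM. Abr, the highest of the list in CPM, stood at −0.25 ± 0.15 (adjusted p = 0.281). None of the 9 WAVE complex genes was called by edgeR or DESeq2, although 5 were lower and 0 higher at an unadjusted p under 0.05 in edgeR, with Cyfip2, the highest in CPM, at −0.77 ± 0.16 (adjusted p = 0.0138). Of 10 Arp2/3 genes, Actr3b was called lower (−1.58 ± 0.38, adjusted p = 0.0235) at 0.615 to 1.07 against 0.214 to 0.340 CPM, a call lost in 4 of the 6 fits that left out a library, and Actr3 stood at −0.74 ± 0.17 (adjusted p = 0.0198). Of 11 effectors, Wipf1, which stabilises WASP, fell by 1.23 ± 0.14 (adjusted p = 0.0014) and Iqgap1, a scaffold that binds active Rac and Cdc42, fell by 1.16 ± 0.16 (adjusted p = 0.00252), and Cfl1 stood at −0.33 ± 0.22 (adjusted p = 0.332).

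The study's text links Dock1 to Notch signaling, and 16 Notch pathway genes were tested for that reason. The list gave 2 calls higher and 3 lower, or 1 and 3 without Rpl22+/+ replicate 2, with a median of −0.44. The ligand gene Jag2 was higher (1.23 ± 0.29, adjusted p = 0.0212), at 2.54 to 3.09 against 4.52 to 9.09 CPM, and the call was lost in 4 of the 6 fits that left out a library. Lfng, a glycosyltransferase that tunes Notch receptors, was lower (−1.19 ± 0.21, adjusted p = 0.00768), as were the coactivator gene Maml1 (−1.18 ± 0.16, adjusted p = 0.00244) and the receptor gene Notch2 (−1.07 ± 0.16, adjusted p = 0.00347). Notch2 lost its call in 5 of 18 alternatives. Among these were the fit without Rpl22+/+ replicate 2, where its change was −0.98, and that with a length curve (−0.97, adjusted p = 0.103). Notch1, the uncalled gene with the highest mean CPM, stood at −0.51 ± 0.17 (adjusted p = 0.066).

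Markers of other cells that a spleen sort could hold moved as well. The 5 T cell markers fell (4 without Rpl22+/+ replicate 2), from a summed 35.1 to 44.5 TPM to 13.9 to 16.7 TPM, and 4 of 5 erythroid markers rose, from 147 to 172 TPM to 914 to 1680 TPM. Of 6 splenic macrophage markers 5 rose, from 18.0 to 20.0 TPM to 34.7 to 46.0 TPM. None of 5 B cell markers was called by edgeR or DESeq2, with 1 lower at an unadjusted p under 0.05 (395 to 502 against 284 to 388 TPM). Of 5 dendritic cell markers 2 fell (1 without Rpl22+/+ replicate 2), from 6.56 to 7.33 TPM to 3.41 to 4.24 TPM. Stromal markers summed to 1.20 to 1.68 TPM and 0.676 to 1.62 TPM, with 1 of 3 tested called lower and Col1a2 and Col3a1 at or under 0.0534 CPM in every library, and platelet markers summed to 3.57 to 4.87 TPM and 4.94 to 5.19 TPM with no call by edgeR or DESeq2 among the 2 tested and 1 lower at an unadjusted p under 0.05. The part of these cells in the Dock and Elmo levels was not tested.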

How the data were processed

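The data are poly(A) RNA-seq of CD11b+Gr1+ splenocytes. Per the study's methods the authors made stranded libraries, used Trimmomatic for trimming and Salmon for transcript quantification; versions and transcript set are not given in the sources used here, nor whether counting used strand. The deposited files hold estimated counts and TPM per transcript for each library. A further deposited table gives, beside the authors' base mean signal, their own comparison (fold changes and p-values), of which none was used, and the GRCm39 positions printed. Estimated counts and TPM were summed to genes with GENCODE vM21 (136036 of 276623 transcripts, 98.0% to 98.1% of reads) and counts were rounded. Of 29374 genes with reads, 16656 passed filterByExpr.

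Genotypes were compared with edgeR 4.0.16 (quasi-likelihood F test, TMM, genotype as the only term, R 4.3.3) and Benjamini-Hochberg adjustment over all tested genes. A call needed an absolute log2 fold change over 1 and an adjusted p under 0.05. SE is the value implied by F. The test was checked on simulated data. The members and lists were chosen with earlier results of these data known. Named genes are the members, Rpl22, in each list the called genes up to the 4 largest changes and the uncalled gene with the highest mean CPM, and the 4 genes nearest in profile to the members with the largest rise and drop (mean of at least 50 counts). Dock4, Ankrd28, Gas6 and the marker genes were named after their values were seen. A gene picked by this rule is not reported here. Same-numbered libraries deviated together (correlations of 0.57, 0.715 and 0.129 across genes for numbers 1, 2 and 3), although Rpl22+/+ replicate 3 correlated more with Rpl22-/- replicate 1 (0.43), and no label says what a number marks. No 2 libraries agreed within sampling noise. Sequences came from GENCODE vM21 transcripts and RefSeq promoters (GRCm38.p6); coding sequences were aligned with Biopython 1.88. Alternatives used DESeq2 1.42.0 and limma 3.58.1.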

Additional observations from a re-analysis of the deposited data

How the results depend on the processing

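Under 18 alternatives (other scalings, filters, tests, length and GC curves, a replicate block, and each library left out), 1 member, Dock1, was called higher in each, with a log2 fold change from 2.45 on log2(TPM + 1) to 3.97 with a length curve. Dock2 (−0.53 to −0.28), Dock5 (−0.81 to −0.48), Dock8 (−0.41 to −0.20) and Elmo1 (−0.37 to −0.08) stayed negative in all 18, with Elmo1 nearest to 0 on TPM and Dock2 and Dock8 with a length curve. Dock10 was negative in 9 and Dock11 and Elmo2 in 14 each. The number of members called lower was 0 to 1 when a library was left out, 1 (Dock11) without Rpl22+/+ replicate 2. With limma on log2(TPM + 1), 906 genes were called higher and 699 lower, and 3 and 10 pathway genes; on log2(TPM + 0.1), 6 pathway genes were called higher. Leaving out each library gave 1031 to 1708 genes higher and 1177 to 1723 lower, and 5 to 11 pathway genes higher and 13 to 20 lower. Of 26 pathway calls, 16 held in every fit that left out a library. Counted as not lost under any alternative were 12, but these include Stab1, so fewer than 12 held in all 18. Stab1 turned positive in 3 settings, at 0.0685 on log2(TPM + 1), 0.128 on log2(TPM + 0.1) and 0.0942 with effective lengths as an offset; the cause was not tested. Library totals without a composition factor moved the median of all genes from 0.07 to 0.19 and made 59.7% of calls higher, against 51.1%.

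With the replicate block, 11 pathway genes were called higher and 16 lower: Ankrd28, a partner of Dock1 and Crk (1.15 ± 0.57, adjusted p = 0.192), was called at 1.26 (adjusted p = 0.0117), and no other pathway or member call changed. The blocked log2 fold change was 0.32 for Dock10 and 0.12 for Dock11, with neither called. Depth limits Dock1 in Rpl22+/+ (167 to 173 reads) more than any other member.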
